A study of Arabidopsis thaliana with 12 samples.

Results

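The transcripts described are those with the brightest array probes in water-treated Arabidopsis thaliana plants. Of 3439 probes on the array, 692 are paired with exactly 1 gene. Each sample was divided by its median over all probes, the 6 water samples were averaged, and the top 10% of the single-gene probes (69) were taken. Leaving out CYN, PSBW, LHB1B2, XERICO, AT5G65220 and AT1G74470, 63 probes remained, each for a different protein-coding gene. The water values thus chose the members, and their high level in water is no result. The brightness of different probes also depends on the probes, so the order of the members by intensity is not shown to be an order of RNA amount.

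Total RNA came from plants of ecotype Wassilevskija, wild type in both groups. Of the samples, 6 came from plants given 100 mM proline for 6 h, described as raising cellular proline to toxic levels, and 6 from plants given H2O, for which the labels state no duration. The labels name no organ or age, nor whether the 6 samples of a group were grown separately. The spread on which the p-values rest is that among these samples and may be partly or wholly technical.

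Abundant transcripts of a green plant are typically those of photosynthesis and of protein synthesis. Most proteins of the chloroplast are made from nuclear genes, and many nuclear genes serve the processing of RNA within chloroplasts and mitochondria. Proline is an amino acid that plants store under water shortage and break down in mitochondria when the stress ends.

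The median deposited intensity was 0.213 to 0.361 in proline samples and 0.171 to 0.188 in water samples, on a scale from 0 to 100. Between 3 and 4 probes of a proline sample and between 5 and 8 of a water sample stood at 100. Levels were therefore quantile-normalized, which gives all samples the same set of values, and tested on the log2 scale with limma. A member is said to have risen or fallen where its Benjamini-Hochberg adjusted p over all 3097 tested probes was under 0.05. This test takes the 12 samples as independent, although neighbouring samples of a group resembled each other, as given below. The same differences are also given for values divided by the sample median (median centring), for values as deposited, and after cyclic loess. The median of all probes lay at -0.03 (log2) after quantile normalization, -0.10 with median centring, 0.00 with cyclic loess and 0.41 in the values as deposited.

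The 63 members took 10.7% ± 0.7 of the summed deposited intensity of a proline sample and 13.4% ± 0.1 of that of a water sample (SD, n = 6 each). Of the intensity of the 692 single-gene probes they took 54.1% ± 3.2 in proline and 68.8% ± 0.6 in water. The shares did not overlap between the groups, at 49.5% to 56.9% in proline and 68.1% to 69.9% in water. The brightest member stood at the ceiling of 100 in all 12 samples, so the shares rest partly on a bound. The 692 probes also include those of the 6 genes left out of the choice, whose changes move the share of the members. These shares are given with no test, since the water samples chose the members.

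In water the members stood from 5.59 times the sample median up to at least 567 times, 567 being that of a probe at the ceiling of the scale and so a lower bound. Of the 63, 5 averaged over 100, 28 between 10 and 100, and 30 up to 10. The members at the lower edge were AT5G66780 at 5.70 and AT2G04790 at 5.59, and the first probes beyond it were those of AT5G14590 and RAP74, both at 5.41. What lies just inside and just outside is therefore separated by little.

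The gene tables used here give 8 of the 63 a name and list 55 by locus code alone. For those 55 a role is stated only where it is well established for that locus. The named genes are NdhS, PSAN, PSBY, PRK, CCL, PRA1.B6, chr31 and APTX. From the fixed lists, 4 of 48 genes of the photosynthetic light reactions had a single-gene probe, all 4 of them among the 69 brightest (PSAN, PSBY and the excluded PSBW and LHB1B2). Of 19 Calvin cycle genes, 2 had such a probe and 1, PRK, was a member. None of the 12 listed genes of photorespiration, 6 of proline metabolism, 4 of elongation factor 1-alpha, 4 of metallothioneins and 7 of aquaporins had one, so these are not analysed here.

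**Figure D1:**
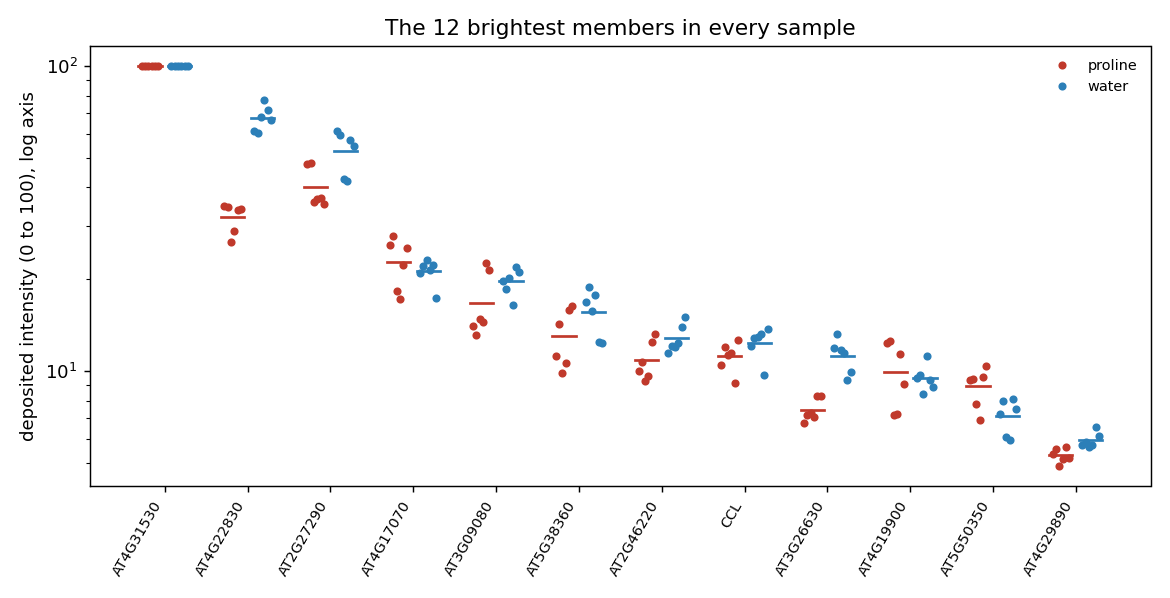
Deposited intensity (0 to 100, log axis) of the 12 brightest members in each of 6 proline samples (left, red) and 6 water samples (right, blue), with a line at each group mean. AT4G31530 stands at the ceiling of 100 in all 12 samples, and AT4G22830 and AT3G26630 are lower in every proline sample than in any water sample.

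AT4G31530, which encodes a protein with a nucleotide-binding Rossmann fold, was the brightest member. It stood at the ceiling of 100 in all 12 samples, so its level has only a lower bound in both groups and no fold is given. The other 62 members were compared.

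AT4G22830 had deposited intensities of 26.4, 33.8 and 34.9 (lowest, median and highest) in proline, against 60.2, 67.1 and 77.5 in water. After quantile normalization it fell to 36.2 ± 1.3 in proline, against 58.3 ± 7.0 in water (SD, n = 6 each; log2 fold change -0.68, SE 0.09, limma adjusted p = 0.00012). Quantile normalization gave the proline samples other than sample 5 the same value of 36.8. The proline SD therefore does not reflect the spread of the deposited values. AT4G22830 was lower in all 6 proline samples than in any water sample, and it passed in all 4 scalings, with log2 fold changes from -1.65 to -0.68.

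AT3G26630, a pentatricopeptide repeat protein of the family that binds organelle RNA, fell to 7.09 ± 0.67 in proline, against 11.3 ± 1.2 in water (log2 fold change -0.68, limma adjusted p = 0.00025). Its quantile-normalized values ran from 6.13 over a median of 7.29 to 7.77 in proline, and from 9.58 over 11.9 to 12.8 in water. The groups did not overlap, in the values as deposited as well. In such bulk RNA, fewer cells of a type and less RNA per cell cannot be told apart.

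AT4G29890, a protein related to choline monooxygenase, fell to 5.05 ± 0.34 in proline, against 6.30 ± 0.20 in water (log2 fold change -0.32, limma adjusted p = 0.0053). As deposited the groups overlapped and it did not pass (-0.16, adjusted p = 0.14), nor did it after cyclic loess (-0.12, adjusted p = 0.24) or when neighbouring samples were averaged (adjusted p = 0.16).

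The other 8 of the 12 brightest did not pass after quantile normalization. Their log2 fold changes ran from -0.28 for AT2G46220 to 0.24 for AT4G17070, with SE of 0.10 to 0.16. CCL, a transcript whose stability follows the circadian clock, stood at 11.0 ± 1.5 in proline and 12.6 ± 1.5 in water (log2 fold change -0.20, adjusted p = 0.23). AT4G19900, of a glycosyltransferase family, had -0.08 (adjusted p = 0.67) and AT5G50350 had 0.16 (adjusted p = 0.22).

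With median centring, however, 5 of these 8 were called lower: AT2G27290 (-0.97), AT3G09080 (-0.84), AT5G38360 (-0.85), AT2G46220 (-0.81) and CCL (-0.72). After cyclic loess AT4G17070 (0.32) and AT5G50350 (0.41) were called higher. AT2G27290 was also called lower as deposited (-0.39, adjusted p = 0.037), and AT2G46220 when the replicate number was fitted as a block (adjusted p = 0.022). The calls of 7 of these 8 members thus differed between scalings, and AT4G19900 passed in none of them.

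Over the 62 members compared, 27 fell and 5 rose after quantile normalization (43.5% and 8.06%), and their median log2 fold change was -0.31. Over all tested probes 20.9% were called lower and 17.1% higher (38.0% in all), and the median was -0.03. The proline and water values did not overlap for 26 members that were lower and 4 that were higher, against 12.1% and 10.4% of all tested probes. Divided by the sample median, 28 lower and 0 higher members did not overlap (13.1% and 8.85%), and as deposited 12 and 5 (3.13% and 24.3%). Since high water values chose the members, the counts were also taken with other choices. When the brightest 10% were chosen by the mean over all 12 samples, 18 fell and 12 rose, with a median of -0.21. When they were chosen by the 6 proline samples, 11 fell and 21 rose, with a median of 0.02. The counts therefore describe transcripts picked by their water level.

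**Figure D2:**
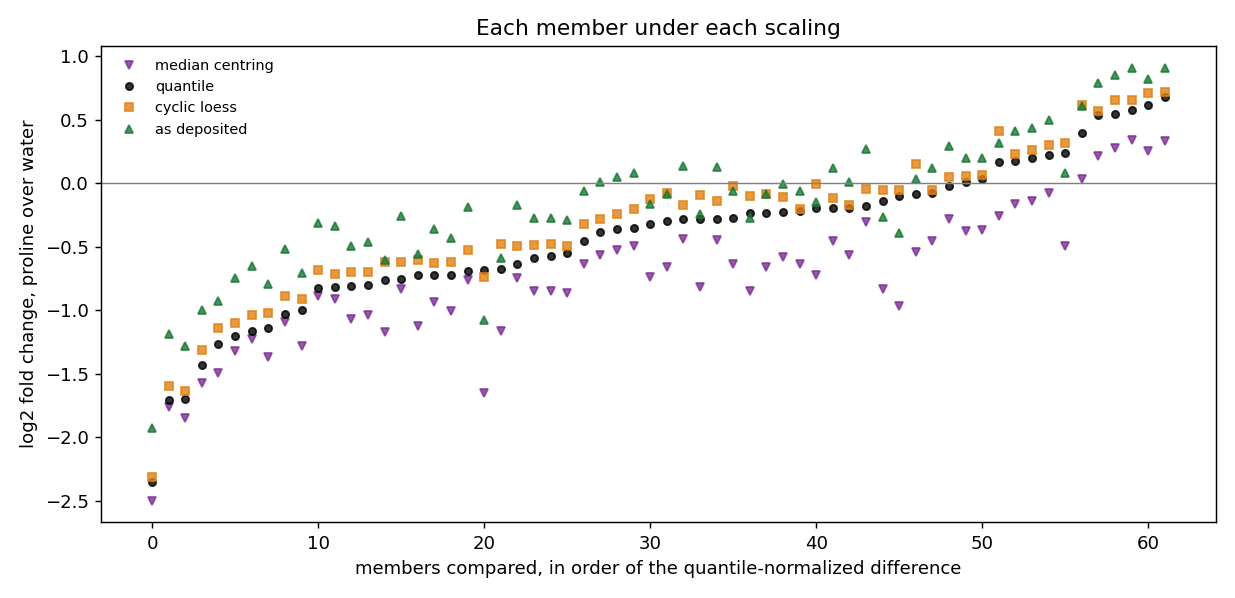
Log2 fold change (proline over water) of the 62 members compared, in order of the quantile-normalized value, under 4 scalings. All 27 falls but AT3G51320 (0.01 as deposited) are below 0 under all 4, whereas 18 members change sign with the scaling.

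The split between falls and rises moved with the scaling. Median centring gave 40 members lower and 0 higher (median -0.73; 22.3% and 14.8% of all probes tested there). The values as deposited gave 20 lower and 9 higher (median -0.16; 5.77% and 38.6%), and cyclic loess 25 lower and 7 higher (median -0.19; 18.6% and 19.0%). In all 4 scalings 38 members were lower, 6 were higher and 18 changed sign. Of the 27 falls, 27 also passed with median centring, 19 as deposited and 25 after cyclic loess. Of the 38, 19 passed the test in all 4, and of the 6, 0 did. Agreement over the 4 scalings was not counted for all tested probes, so these counts have no share to stand beside.

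Falls of at least 2-fold that passed were seen for 9 members (14.5%), against 5.20% of all tested probes. There was no rise of that size among the members, a count that does not cover the genes left out of the choice. Of those genes, AT5G65220 rose by more than that (log2 fold change 2.85, limma adjusted p = 2.2e-08). CYN fell by more than that (-2.41, limma adjusted p = 3.8e-08). The lack of such rises therefore depends on leaving AT5G65220 out. The share of all tested probes with a rise of at least 2-fold was not taken, so falls and rises of this size cannot be weighed against each other. All 9 also passed under the other 3 scalings and in a test on 3 averages per group, each over neighbouring samples (1 with 2, 3 with 4, 5 with 6).

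AT4G25290 fell most. It had 0.237, 0.371 and 0.475 (lowest, median and highest quantile-normalized intensity) in proline, against 1.44, 1.92 and 2.23 in water (log2 fold change -2.35, SE 0.18, limma adjusted p = 1.0e-06). Its lowest water value was over the highest proline value, and it moved from position 42 of 692 in water to position 211 in proline.

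AT2G21720 had 0.255, 0.489 and 0.641 in proline, against 1.09, 1.46 and 1.70 in water (log2 fold change -1.70, SE 0.24, limma adjusted p = 0.00017). AT2G37510, an RNA-binding protein with an RNA recognition motif, had 0.408, 0.508 and 0.575 in proline, against 1.30, 1.63 and 1.94 in water (log2 fold change -1.70, SE 0.13, limma adjusted p = 7.0e-07). By the fitted log2 difference AT2G21720 was 3.26-fold and AT2G37510 3.25-fold lower in proline, with no overlap of samples, and the proline samples of AT2G37510 were the closer together.

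AT3G59980 had 0.451, 0.602 and 0.848 in proline, against 1.34, 1.64 and 2.03 in water (log2 fold change -1.43, limma adjusted p = 4.9e-05). AT5G52810, a reductase in the synthesis of pipecolic acid, an immune signal made from lysine, had 0.808, 0.930 and 1.24 in proline, against 2.02, 2.47 and 2.61 in water (log2 fold change -1.27, limma adjusted p = 8.7e-06). The groups of neither gene overlapped, whether quantile-normalized, divided by the sample median or as deposited.

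The chromatin remodeller chr31, of the CLASSY family that guides RNA-directed DNA methylation, fell to 0.613 ± 0.102 in proline, against 1.40 ± 0.12 in water (log2 fold change -1.20, limma adjusted p = 9.0e-06). APTX, named for aprataxin, which in animals and yeast repairs abortive DNA ligation, fell to 0.630 ± 0.146 in proline, against 1.27 ± 0.23 in water (-1.03, limma adjusted p = 0.00063). The remaining pair of 2-fold falls, AT3G06570 (-1.16) and AT1G51350 (-1.14), is named to complete the count, after its values were seen.

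**Figure D3:**
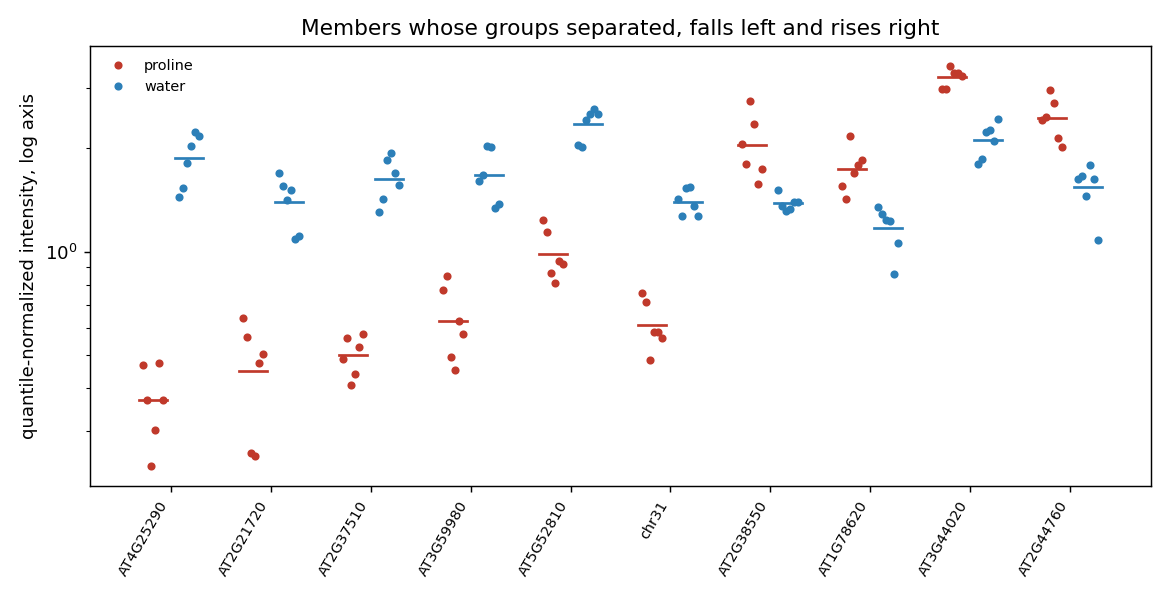
Quantile-normalized intensity (log axis) in each proline sample (left, red) and water sample (right, blue), with a line at each group mean, for the 6 largest falls and the 4 rises among members whose groups did not overlap. The falls reach a log2 fold change of -2.35 (AT4G25290), and the rises 0.68 (AT2G44760).

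The rises were smaller. AT2G44760 had 2.01, 2.44 and 2.95 in proline, against 1.08, 1.63 and 1.79 in water (log2 fold change 0.68, SE 0.14, limma adjusted p = 0.0021). AT3G44020 had 2.98, 3.28 and 3.47 in proline, against 1.80, 2.17 and 2.43 in water (0.61, SE 0.10, limma adjusted p = 0.00033). The groups of both were separate after quantile normalization and as deposited, but overlapped when divided by the sample median. Both passed in the test on pair averages (adjusted p = 0.049 and 0.043).

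AT1G78620, a kinase that phosphorylates phytyl phosphate for tocopherol synthesis, rose to 1.74 ± 0.26 in proline, against 1.17 ± 0.18 in water (0.58, limma adjusted p = 0.0048). AT2G38550, of the FAX family of plastid fatty acid exporters, rose to 2.05 ± 0.44 in proline, against 1.38 ± 0.07 in water (0.54, limma adjusted p = 0.0060). PRA1.B6, a prenylated Rab acceptor of the endomembrane system, had 4.11, 5.36 and 6.22 in proline, against 3.69, 3.90 and 4.32 in water (0.40, limma adjusted p = 0.017), and its groups overlapped. None of these 3 passed on pair averages (limma adjusted p = 0.086, 0.11 and 0.17). With median centring none of the 5 rises passed, at 0.33 for AT2G44760, 0.25 for AT3G44020, 0.34 for AT1G78620, 0.21 for AT2G38550 and 0.04 for PRA1.B6, and all 5 passed as deposited and after cyclic loess.

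The 21 members with a role in 1 of 6 groups are described next, after quantile normalization. Of the 62 members compared 43.5% fell and 8.06% rose, and of all tested probes 20.9% and 17.1%. Falls were thus more frequent among the members as a whole, so falls within a group do not set its role apart. The groups were set from gene names and general knowledge, and the other 42 members were placed in none of them. The counts per group therefore depend on which genes were placed.

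**Figure D4:**
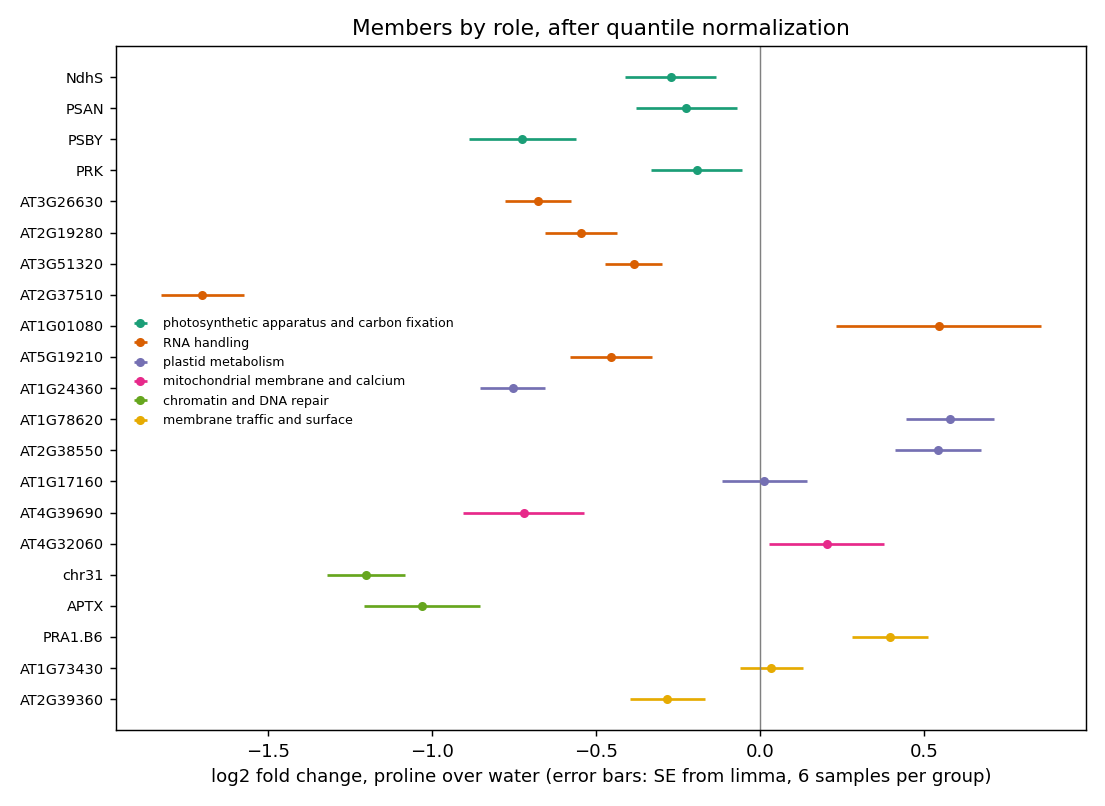
Log2 fold change (proline over water) after quantile normalization of the 21 members grouped by role, with error bars of 1 SE from limma (6 samples per group). In RNA handling 5 of 6 lie below 0, and in plastid metabolism AT1G78620 and AT2G38550 lie above it while AT1G24360 lies below.

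Of the 4 members of the photosynthetic apparatus and carbon fixation, 1 fell and 3 did not pass. PSBY, a small subunit of photosystem II, fell; it had 0.722, 0.896 and 1.35 in proline, against 1.43, 1.61 and 1.72 in water (log2 fold change -0.72, limma adjusted p = 0.0039). It did not pass as deposited (-0.36, adjusted p = 0.096) or on pair averages (adjusted p = 0.080). PSAN, a subunit of photosystem I, had 2.13, 2.28 and 3.36 in proline, against 2.23, 3.16 and 3.43 in water (-0.23, SE 0.15, adjusted p = 0.28). NdhS, of the thylakoid complex that returns electrons around photosystem I, had 4.32, 4.87 and 6.52 in proline, against 5.14, 6.40 and 7.08 in water (-0.27, adjusted p = 0.15, and 0.049 with the replicate block). PRK, which makes the carbon dioxide acceptor of the Calvin cycle, stood at 1.80 ± 0.30 in proline and 2.06 ± 0.34 in water (-0.19, adjusted p = 0.31). The groups of PSAN, NdhS and PRK overlapped. With median centring PSBY, PSAN (-0.58) and NdhS (-0.64) were called lower, and as deposited none of the 4 was.

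Of the 6 members for RNA handling, 5 fell and 0 rose. Besides AT3G26630 and AT2G37510, these were the pentatricopeptide repeat genes AT2G19280 (-0.55, limma adjusted p = 0.0018) and AT3G51320 (-0.39, limma adjusted p = 0.0037) and the DEAD-box RNA helicase AT5G19210 (-0.45, limma adjusted p = 0.013). AT2G19280 had 1.18, 1.29 and 1.83 in proline, against 1.89, 1.98 and 2.13 in water. AT3G51320 stood at 1.01 ± 0.08 in proline and 1.31 ± 0.09 in water, and as deposited its difference was 0.01 (adjusted p = 0.94), so its fall is relative to the other probes. AT5G19210 stood at 1.12 ± 0.20 in proline and 1.51 ± 0.10 in water, and as deposited it did not pass (-0.06). On pair averages AT3G26630 and AT2G37510 passed and the other 3 did not. AT1G01080, the other protein with an RNA recognition motif, had 0.983, 2.54 and 3.06 in proline, against 0.957, 1.48 and 2.10 in water (0.54, SE 0.31, adjusted p = 0.20). Its samples spread widely in both groups, and it passed with the replicate block (adjusted p = 0.011) and as deposited (0.86, adjusted p = 0.038), but not on pair averages (adjusted p = 0.43) or with pairs of neighbouring samples as a random block (adjusted p = 0.28).

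Of the 4 members of plastid metabolism, AT1G78620 and AT2G38550 rose as given above and AT1G24360 fell. AT1G24360, the ketoacyl reductase of fatty acid synthesis, had 0.579, 0.727 and 0.797 in proline, against 1.13, 1.17 and 1.25 in water (-0.75, SE 0.10, limma adjusted p = 9.1e-05), with no overlap. AT1G17160, a ribokinase, stood at 2.33 ± 0.34 in proline and 2.31 ± 0.36 in water (0.01, SE 0.13, adjusted p = 0.95).

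Of the pair of mitochondrial members, AT4G39690, a mitofilin-type protein of the inner membrane, fell to 1.43 ± 0.38 in proline, against 2.29 ± 0.26 in water (-0.72, limma adjusted p = 0.0080), and passed neither as deposited (adjusted p = 0.053) nor on pair averages (adjusted p = 0.10). AT4G32060, a regulator of mitochondrial calcium uptake, stood at 2.18 ± 0.51 in proline and 1.87 ± 0.31 in water (0.20, SE 0.18, adjusted p = 0.41). Both members for chromatin and DNA repair, chr31 and APTX, fell. Of the 3 for membrane traffic and the cell surface, PRA1.B6 rose and the others did not pass. AT1G73430, a subunit of a Golgi tethering complex, had 0.03 (SE 0.10, adjusted p = 0.82) and the receptor-like kinase AT2G39360 had -0.28 (adjusted p = 0.070, and 0.045 with the replicate block).

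At the lower edge of the choice AT2G04790 fell to 0.658 ± 0.069 in proline, against 1.15 ± 0.04 in water (-0.82, limma adjusted p = 1.9e-05), and AT5G66780 did not pass (-0.17, adjusted p = 0.12). Of the 23 members not named by the rule for genes, 10 fell, with log2 fold changes from -1.16 to 0.22. All 5 rises were named, so the 0 rises among these 23 follow from the naming. Of the 62 members compared 43.5% fell, and of all tested probes 20.9%.

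The members were no uniform set in either group. On the quantile-normalized scale the coefficient of variation of a member over 6 samples had a median of 16.8% in proline and 11.6% in water. The widest was that of AT3G17550, at 47.8% in proline and 49.2% in water (named after its values were seen). It had 1.04, 0.283, 1.62, 1.61, 2.26 and 1.63 in proline samples 1 to 6, against 1.07, 0.948, 3.66, 3.66, 3.54 and 3.69 in water samples 1 to 6. Samples 1 and 2 were the lowest in both groups, and its difference (-0.996, SE 0.53, adjusted p = 0.17) passed with the replicate block (adjusted p = 0.0081) but not on pair averages (adjusted p = 0.35) or with the pairs as a random block (adjusted p = 0.31).

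Samples 1 and 2, 3 and 4, and 5 and 6 of a group resembled each other in these members. Between such neighbours the absolute log2 difference had a median of 0.0856 to 0.114 in proline and 0.0592 to 0.0812 in water, against 0.247 to 0.415 and 0.136 to 0.275 between other samples of the same group. On the averages of these pairs, 16 of the 62 members fell and 2 rose (8.72% and 8.40% of all tested probes). With the replicate block 31 fell and 6 rose (22.5% and 18.9%). Leaving out 1 pair average left 2 falls when it was the one of water samples 3 and 4, and 13 when it was the one of proline samples 1 and 2, with 0 rises in each of the 6 cases. Of all tested probes 1.23% and 4.88% were called lower in those fits. The share of all tested probes called higher was not taken for the 6 cases, so the 0 rises have no share to stand beside. Without proline samples 3 and 4, which had the highest deposited medians, 28 fell and 6 rose. Fewer of all tested probes were called in that fit than in the main fit, taking both directions together. The shares called lower and higher without these samples were not taken, so the split between falls and rises has no share to stand beside.

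Ranked by the 6 proline samples in the same way, 44 of the 63 members were again among the brightest 10% and 19 were not. Of the 19, 10 ranked past position 100 of 692. Some loss follows from choosing the members by their water values. In turn, 19 other probes entered the brightest 10% in proline. Of these, 16 were called higher after quantile normalization, beside 17.1% of all tested probes, and their proline values chose them. Across the members the log2 levels in proline and water correlated at r = 0.94 (Spearman's rho 0.83, n = 63 probes on the same arrays, as a description).

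**Figure D5:**
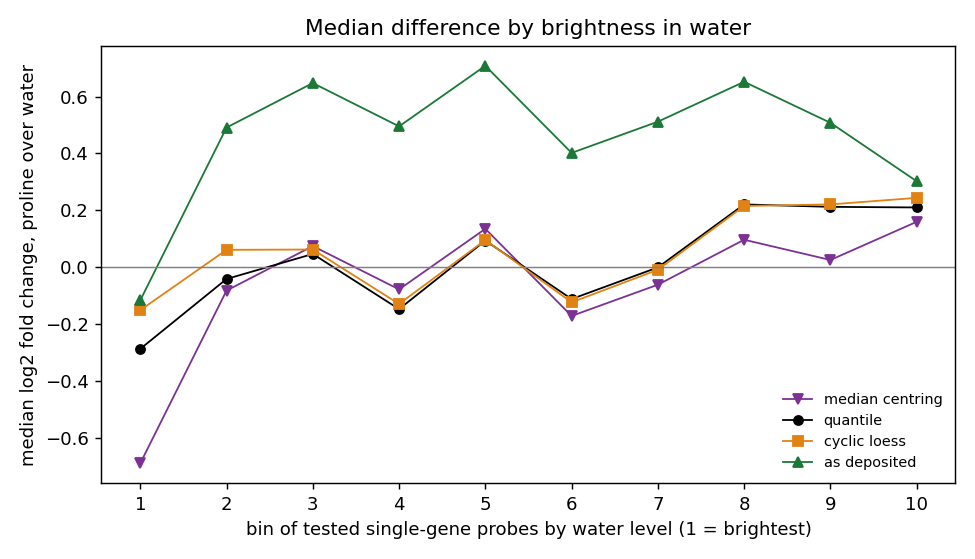
Median log2 fold change (proline over water) in each of 10 equal bins of 62 tested single-gene probes, from the brightest in water (1) to the dimmest (10), under 4 scalings. The brightest bin lies lowest under each scaling, after cyclic loess by little, at -0.69 with median centring, -0.29 after quantile normalization, -0.15 after cyclic loess and -0.12 as deposited.

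In 10 bins of 62 tested single-gene probes by water level, the brightest bin had a median log2 fold change of -0.29 after quantile normalization, while the other bins lay between -0.15 and 0.22. With median centring these were -0.69, against -0.17 to 0.16. As deposited they were -0.12, against 0.30 to 0.71. The brightest 10% of all probes, named or not, gave 136 lower and 45 higher of 343 (39.7% and 13.1%; median -0.23), close to the values of the members. The members compared stayed below the ceiling of 100 in all samples. With probes at the ceiling left out of the fit, 27 members fell and 5 rose, with a median of -0.31, as in the main fit. Those probes were left out after normalization, so their part in the normalization was not tested. The choice of probes by water level also goes with brightness, and its part was not tested either.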

How the data were processed

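The authors deposited 1 table of array intensities on a linear scale from 0 to 100, as read from the values; how they were scanned, corrected and scaled is not given in the sources used here. The platform annotation listed 1562 probes, 692 with 1 gene, of which 690 (all 63 members) matched gene numbers of assembly TAIR10.1. Sequences are not used here. Members, lists and alternatives were chosen with earlier results of these data known.

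Values were quantile-normalized, values under 0.0377 (the 5th percentile of positive deposited intensities) were set to it, and log2 was taken. Left out were 342 probes that stood at the floor throughout, none of them a member. Differences between proline and water were tested two-sided with limma 3.58.1 (R 4.3.3) on 3097 probes, with Benjamini-Hochberg adjustment and a threshold of 0.05. The fit was also run on simulated data. Their samples were independent, so that run cannot show how the fit behaves where neighbouring samples resemble each other. No count or set test was used. Median centring divided each sample by its median.

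Genes named were the 12 brightest, up to 6 largest rises and 6 falls among passing members without overlap, the edge of the choice, and those with a stated role (all of them, where the rule asked for up to 2 per role group, to complete counts). Same-numbered proline and water samples deviated together (r = 0.46, 0.47, 0.29, 0.30, 0.20 and 0.16 for numbers 1 to 6). Each was above 0.1, so the numbers were taken to pair samples in the fit with the replicate block. The highest r with a differently numbered sample was 0.159, 0.159, 0.174, 0.174, 0.083 and 0.083. Some of these also pass 0.1, so that limit does not single out same-numbered samples. The main fit has no block and takes neighbouring samples as independent, although the estimated correlation within pairs of neighbours was 0.54. Its p-values do not allow for this. On pair averages 18 of the 62 members were called, against 32 in the main fit. The number of arrays limits the precision.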

Additional observations from a re-analysis of the deposited data

Results flagged for a closer look

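Among 78 groups of 6 samples of the members named, 3 held a sample that stood apart by its gap. Chance alone flags about 1 in 20 groups. AT4G22830 stood at 33.5 in proline sample 5, against 36.8 in each of the other proline samples, which quantile normalization made equal because the probe had the same rank in them. AT4G19900 stood at 11.54 in water sample 4, against 9.04 to 9.97 in the other water samples. AT3G51320 stood at 1.48 in water sample 6, against 1.25 to 1.31 in the other water samples.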

How the results depend on the processing

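Of all 3097 probes, 1176 were called; the means of pairs gave 530, pairs as a random block 757, and leaving out 1 sample or 1 mean of a pair 131 to 1149. Of the members, 32 were called, against 18 with the means of pairs and 2 to 33 on leaving out. The 5 rises became 0 with median centring, 9 as deposited, 2 with the means of pairs and 0 to 6 on leaving out. The 27 falls became 16 with the means of pairs and 2 to 28 on leaving out, the lowest values coming from the means of pairs. The median of -0.31 became -0.19 after cyclic loess, -0.73 with median centring and -0.16 as deposited, and -0.42 to -0.31 on leaving out. Choosing members by all 12 samples gave 12 rises and a median of -0.21, and by the proline samples 21 rises, 11 falls and a median of 0.023. The brightest 5% gave 12 called of 28 (2 higher, 10 lower, or 7.14% and 35.7%). The brightest 20% gave 62 of 131 (19 higher, 43 lower, or 14.5% and 32.8%, median -0.20). Both shares of falls were below the 43.5% of the 62 members, beside 20.9% of all tested probes. The brightest 10% of all probes, added after the data were seen, gave 181 of 343 (45 higher, 136 lower).

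As deposited, 11 of the 62 members changed sign, among them AT3G51320 (0.0116), AT5G66780 (0.27), PRK (0.0117), AT4G19900 (0.033) and AT2G39360 (0.14). With the replicate block 6 members rose and 31 fell; among the 39 named genes compared it added the calls of AT2G46220, NdhS, AT1G01080 and AT2G39360 and changed no other, and none of these 4 passed on pair averages (adjusted p from 0.29 to 0.43). A single sample changed 3 calls, all gained: AT2G46220 without proline sample 6 (-0.34, limma adjusted p = 0.028), AT1G01080 without proline sample 1 (0.76, limma adjusted p = 0.046) and AT2G39360 without water sample 2 (-0.33, limma adjusted p = 0.040). Probes at the ceiling of 100 carry a bound only, and the causes of these shifts were not tested.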
